A study of Mus musculus with 2 samples.

Results

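The regions described here are the array probes that the design places on mouse sequence assigned to a chromosome but not to a position on it, the contigs named after an autosome with the ending _random, together with contigs assigned to no chromosome at all (Un_random). Members were the non-control probes of these contigs that are present in both scanner files. Of 314 probes on random contigs, 7 were left out by their gene name and 1 because its contig belongs to a sex chromosome, which left 306 of the 42404 probes of the array (0.722%). They fall into 15 contig groups, of which 12 hold at least 5 probes. A gene or transcript name is given for 235 of the probes, 164 distinct names in all, and the other 71 carry only a position. No measured ratio enters this rule, but it was chosen with earlier results of these data known.

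Random contigs collect sequence that an assembly could not order, often because it is duplicated or rich in repeats, and positions along them follow an arbitrary joining of pieces. Probes that neighbour each other there may therefore be far apart in the genome. Comparative genomic hybridisation reads the relative copy number of DNA: a test and a control DNA are labelled with different dyes and compete for the same probe, and a lower ratio means less test DNA bound. Dnmt3L is a cofactor of the de novo DNA methyltransferases that acts in germ cells, where it is needed to methylate retrotransposons and imprinted loci.

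The study made 2 arrays, 1 per stage, each setting offspring of a Dnmt3L+/- sire against control DNA. On the adult array the offspring DNA was in Cy3 and came from tail, and the control in Cy5 was tail DNA from C57BL/6 mice of another colony, labelled unrelated. On the embryo array the offspring DNA was in Cy5, from whole embryos at E10.5, and the control in Cy3 came from embryos of a control cross. All of these animals are labelled female and Dnmt3L+/+, so the offspring themselves carry no mutant allele. The adult animals are labelled C57BL/6, while the embryos are labelled both (FVB/NJ x C57BL/6)F1 and C57BL/6, so their strain is not settled. Any pooling of DNA was not given in the sources used here. With 1 array per stage, a difference within an array has no replicate check, and ratios are given as descriptions beside those of the rest of the same array.

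Values are log2 ratios of offspring over control, with the median of each array set to 0. Signals quoted beside a ratio are background-subtracted intensities, without the dye normalization and centring that enter the ratio. A probe is called lower or higher where this ratio is at or beyond 0.5 in size, a 1.41-fold difference. Gene names are printed as the array design gives them, with a current symbol added where the mouse assembly table GRCm38.p6 gave one. Probe sequences were not available to this work and none are printed. The genome build of the probe positions was not given in the sources used here.

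As a group, the contig probes lay at the level of the placed autosomes on both arrays and far from the level of the X chromosome. The median of the 306 probes was 0.0094 in the adult and −0.0063 in the embryo. Probes placed on autosomes had medians of 0.0105 over 40513 probes and 0.0109 over 40490 probes. X chromosome probes had a median of −0.856 on each array, over 1569 and 1566 probes. In the adult comparison the middle 50% of contig probes ran from −0.15 to 0.19, and on the embryo array from −0.17 to 0.20, so neither of these ranges reached the X median. The SD over contig probes was 0.290 and 0.315, against 0.322 and 0.335 over placed autosomal probes. Below 0 lay 150 of the 306 contig probes in the adult and 155 in the embryo. The X level is a measured difference between DNAs labelled as female on both sides, and its cause was not tested here.

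**Figure D1:**
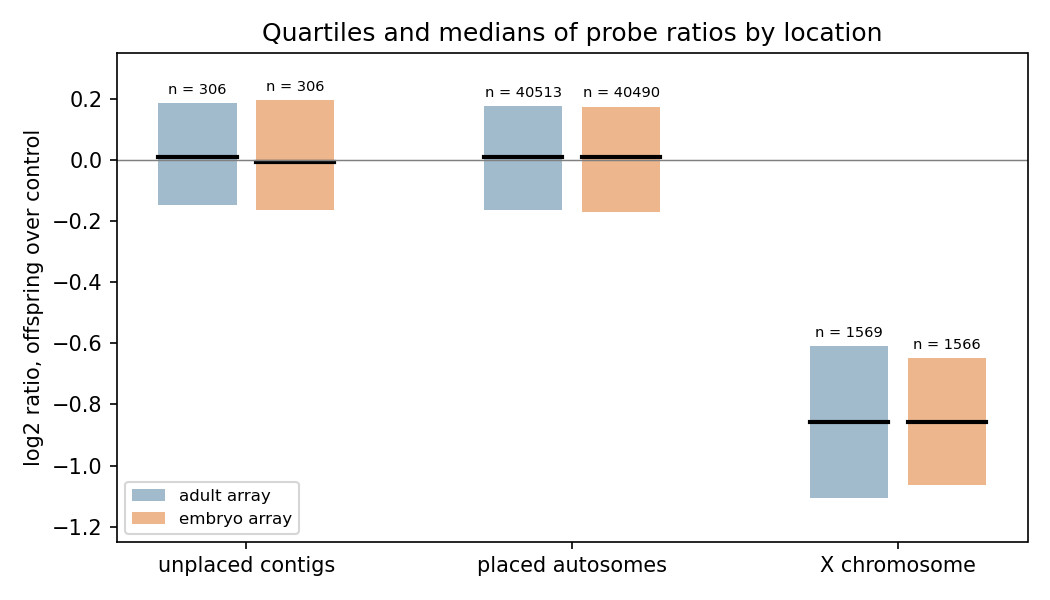
Log2 ratio of offspring over control (y axis) for probes on unplaced contigs, on placed autosomes and on X, for each array. Boxes span the first to the third quartile over probes and black lines mark the medians: contig medians are 0.0094 and −0.0063, X medians −0.856 on both arrays.

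On the adult array 11 contig probes were lower (3.59%) and 16 were higher (5.23%). Over all probes of that array 8.36% were lower and 3.59% higher, and over placed autosomal probes 5.52% and 3.69%. On the embryo array 14 contig probes were lower (4.58%) and 16 higher (5.23%). There the shares were 8.54% lower and 4.4% higher over all probes, and 5.57% and 4.53% over placed autosomal probes. The counts of lower contig probes thus lay below the autosomal share on both arrays and those of higher contig probes above it, by 2 percentage points or less in every case. With the background modelled from the raw intensities (normexp) this balance turned on the adult array, where 2 contig probes were lower and 0 higher, against 0.212% and 0.0123% of placed autosomal probes. The same setting gave 7 lower and 32 higher contig probes in the embryo, against 2.56% and 7.18% of placed autosomal probes. Ratios ran from −1.05 to 0.99 in the adult and from −1.52 to 1.40 in the embryo.

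By contig group, no median reached 0.3 in size on either array among the 12 groups with at least 5 probes. Their medians ran from −0.17 to 0.15 in the adult and from −0.11 to 0.20 in the embryo. The medians of the 19 placed autosomes were narrower, from 0.0018 to 0.020 and from −0.014 to 0.027, but these rest on far more probes each. The largest group, on 7_random with 73 probes and 38 names, had medians of −0.0025 and −0.020. It held the lowest adult probe, at −1.05, whose offspring signal was not well above background. Of its 73 probes, 8 were among the 16 higher embryo probes. On that array 5.23% of all contig probes and 4.53% of placed autosomal probes were higher. On 8_random (41 probes) the medians were −0.049 and 0.0025, and on 13_random (39 probes) they were −0.0045 and 0.018. These 3 groups carry the most probes, and all of their medians were close to 0.

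The 12_random group (28 probes) had medians of −0.035 and −0.029, and 17_random (26 probes) had 0.061 and 0.041. On 14_random (25 probes) the adult median was 0.058 and the embryo median −0.11. That embryo value was the lowest of the 12 groups: 19 of its 25 probes lay below 0, and 3 were lower with none higher. Of placed autosomal probes in the embryo, 48.2% lay below 0, 5.57% were lower and 4.53% higher. The 16_random group (22 probes) had a median of 0.10 on the adult array, where 7 of 22 probes lay below 0, and 0.019 on the embryo array. The shift of 14_random thus had opposite signs in adult and embryo, and that of 16_random was close to 0 in the embryo.

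The groups with 14 or fewer probes had medians on both sides of 0. With 14 probes each, 3_random had medians of −0.10 and −0.026, and 5_random had 0.036 and 0.10. With 5 probes each, 18_random had 0.15 and 0.066, 19_random had −0.17 and 0.20, and 1_random had −0.10 and 0.093. The highest SD among groups, 0.779 over the 5 embryo values of 1_random, came from 1 probe at 1.40 and another at −0.77. Fewer than 5 probes lay on 6_random (4), on Un_random (3) and on 9_random (2). Those on Un_random carry the names Gm1679, Sytl3 and Tctex1, with adult ratios of −0.23, −0.43 and 0.12 and embryo ratios of 0.33, 0.031 and 0.20.

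**Figure D2:**
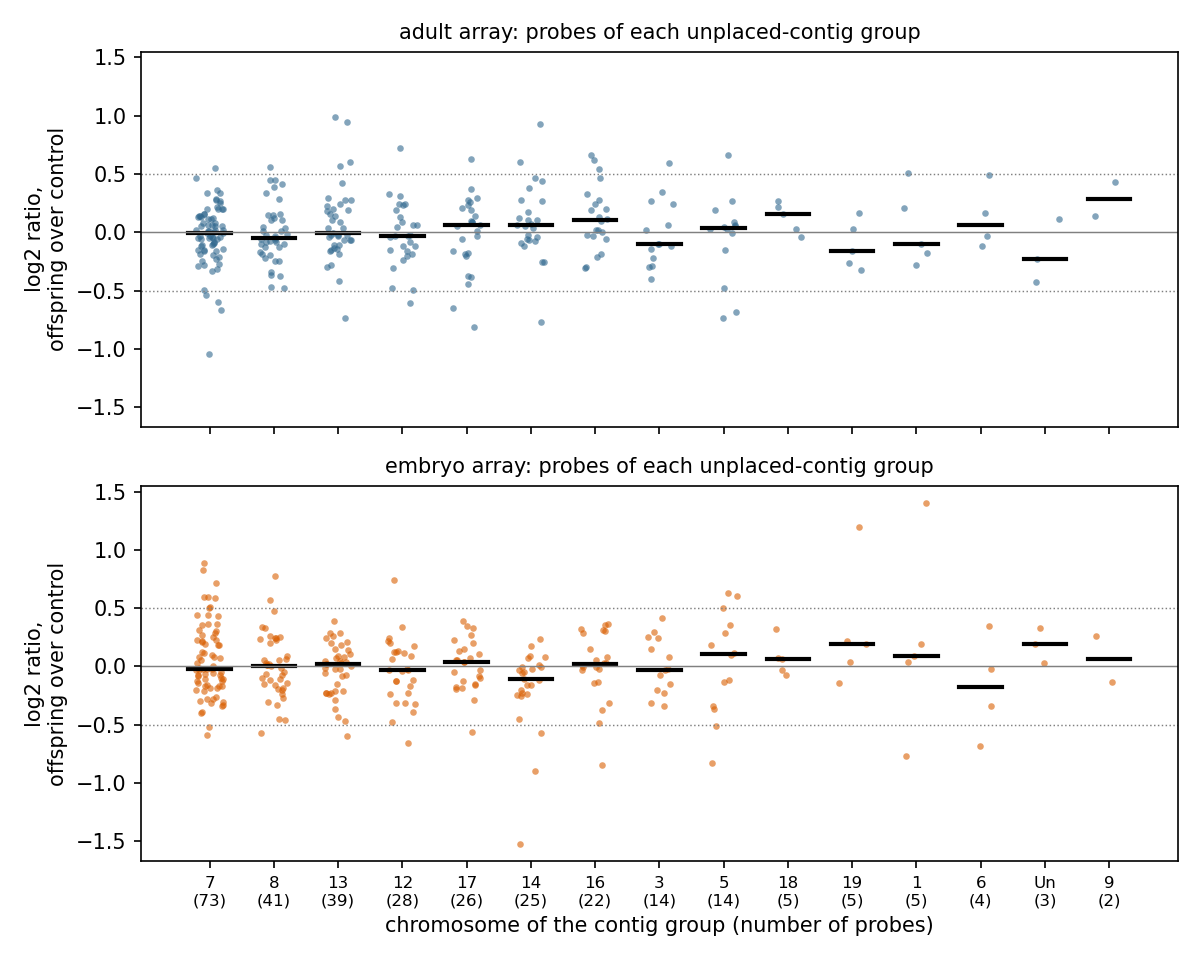
Log2 ratio of offspring over control (y axis) of every contig probe (points), by contig group with the number of probes below (x axis), adult array above and embryo array beneath. Black bars are group medians and dotted lines mark 0.5 in either direction: no group of at least 5 probes has a median past 0.3, and the probes past 0.5 are scattered over groups.

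Single probes past the threshold were spread over many contigs and names. On the adult array the 6 names with the lowest median over probes with usable signal in both channels began with Rfc2, a subunit of the clamp loader of DNA replication, whose 1 probe on 5_random had −0.74. The RIKEN clone 2810402K13Rik (now Klhl25, a substrate adaptor of a ubiquitin ligase) had −0.54. Gpr77 (now C5ar2, a second receptor for the complement fragment C5a) followed with −0.497, just short of the threshold. The unnamed transcripts AI481131, TC1532266 and XM_621471 had −0.48, −0.47 and −0.44. On the embryo array the same Rfc2 probe had 0.11, Gpr77 had 0.44 and 2810402K13Rik had 0.60. None of these names was below 0 on both arrays.

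At the other end of the adult array stood, among others, transcripts with no gene assigned. NAP064750-1 had 0.99 and LOC435363 had 0.94, both on 13_random, and AK054510 on 5_random had 0.66. Zfp295 (now Zbtb21, a zinc finger protein) reached 0.66 at its probe with usable signal. D17Ertd663e on 17_random, in the table now Airn, the non-coding RNA that silences Igf2r in an imprinted cluster, had 0.63. ENSMUST00000067950 on 16_random had 0.62. Their embryo ratios were 0.0063, −0.15, −0.83, −0.49, −0.57 and −0.38 in the same order, so none of the 6 was higher on both arrays. NAP064750-1 was dim on the adult array, with background-subtracted signals of 9.87 for offspring and 6.21 for control.

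On the embryo array the highest contig probe was TC1542006 on 1_random, at 1.40, with signals of 313 in offspring and 64.4 in control. Csf2ra, a subunit of the receptor for the growth factor GM-CSF, followed with 1.19 on 19_random. Bbc3, the p53 target that promotes cell death, had 0.89 on 7_random, and AK047209 on 8_random had 0.78. Next came 2810402K13Rik with 0.60 and Tfpt, a subunit of the INO80 chromatin remodelling complex, with a median of 0.59 over 3 probes. Their adult ratios were −0.10 for TC1542006, −0.33 for Csf2ra, −0.10 for Bbc3, −0.017 for AK047209, −0.54 for 2810402K13Rik and −0.0010 for Tfpt. All 6 of these adult values were below 0, but only those of Csf2ra and 2810402K13Rik exceeded the median SD between repeat adult spots, 0.194. Over placed autosomal probes, the ratios of both arrays had the same sign at 39.0%.

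By the median of their probes, names among the lowest on the embryo array were AK054510 (−0.83), E430019B13Rik (now Lax1, an adaptor of lymphocyte signalling, −0.77), D17Ertd663e (−0.57), Bicd1, an adaptor of dynein transport (−0.51 over 2 probes), and TC1466146 (−0.51). On the adult array the first 3 were higher, at 0.66, 0.51 and 0.63. Bicd1 had an adult median of 0.33 there and TC1466146 had 0.062. None of these 5 names was below 0 on both arrays.

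Across the 2 arrays the calls almost never coincided. A single contig probe was lower on both (0.327% of 306), against 2.83% of all probes and 0.195% of placed autosomal probes. No contig probe was higher on both, against 0.0897% and 0.0939%. Past the threshold in opposite directions were 5 contig probes (1.63%), against 1.12% of placed autosomal probes: 3 were higher in the adult and lower in the embryo, and 2 the reverse. Both ratios had the same sign at 113 of 306 contig probes (36.9%), at 39.0% of placed autosomal probes and at 92.9% of X probes. The correlation of the ratios of both arrays over the 306 probes was −0.28 (Pearson) and −0.32 (Spearman), and over placed autosomal probes −0.25 and −0.31. With normexp the Pearson values were −0.59 and −0.56. These points share 2 arrays with opposite dye orientation, and the part of dye in the negative sign was not tested. At or below −0.3 on both arrays were 2 contig probes (0.654%), against 0.978% of placed autosomal and 85.6% of X probes.

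**Figure D3:**
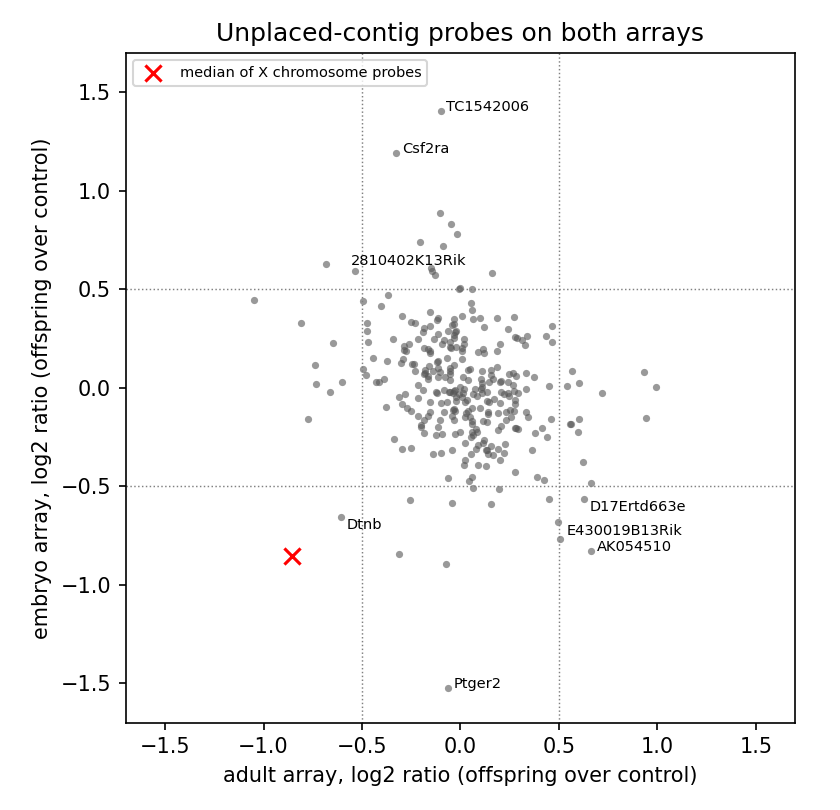
Log2 ratio of offspring over control on the adult array (x axis) and on the embryo array (y axis) for the 306 contig probes (points). Dotted lines mark 0.5 in either direction and the red cross is the median of X probes, at −0.856 on both: 1 contig probe, of Dtnb, is in the corner that is lower on both arrays, and none is in the corner that is higher on both.

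The probe that was lower on both arrays belongs to Dtnb, which encodes beta-dystrobrevin, a partner of dystrophin complexes. It lies on 12_random from 12680495 to 12680545, and its ratio was −0.61 in the adult and −0.66 in the embryo. In the adult it was dim, with background-subtracted signals of 10.9 in offspring and 21.9 in control, and on the embryo array it read 91.2 and 78.0. The embryo medians of such signals over contig probes were 204 in offspring and 107 in control. The other Dtnb probes of 12_random had −0.12 and −0.24 in the adult and 0.13 and 0.12 in the embryo, so the gene as a whole was not lower on both. With normexp the same probe had 0.11 in the adult and −0.52 in the embryo. The probe with the next clearest shift of 1 sign belongs to Litaf, a regulator of endosomal sorting, with −0.31 and −0.84, while its other probe had 0.20 and 0.028.

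The test that uses both arrays together, limma's moderated test of the mean ratio against 0 with adjustment over 42362 probes, called no contig probe and no probe anywhere (0%). Without adjustment 2 of the 306 contig probes had p under 0.05 (0.654%), as had 1.35% of placed autosomal and 4.53% of all probes. They were the Dtnb probe, with an adjusted limma p of 0.486, and the Litaf probe, with 0.882. With normexp background correction the same test called 39 probes, none of them on a contig. This test has 2 arrays, so it sets the mean ratio against the spread between a tail and an embryo hybridisation. Those arrays also differ in dye orientation, and the embryo strain is not settled. A probe that was not called is therefore not shown to be unchanged.

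Neighbouring contig probes were also read together, in windows of 5 consecutive probes of 1 contig group, a length chosen after the ratios had been seen. Of 249 windows on the adult array, 2 had a median at or below −0.3 and 2 at or above 0.3, 0.803% each, against 2.06% and 1.74% of the windows on placed autosomes. On the embryo array 1 window was low (0.402%) and 10 were high (4.02%), against 2.43% and 2.05% on placed autosomes. Low windows made up 98.5% (adult) and 99.9% (embryo) of those on X, none of which was high. Contig windows ran from −0.34 to 0.46 and from −0.31 to 0.43. The 10 high embryo windows overlap in part and lie on 7_random and 5_random. Those on 7_random hold, among others, probes of Tfpt, of Mrg2, Dhx34 and Gpr77, and of Nalp5, C130022P09Rik, D7Ertd458e and Bcl3, and those on 5_random probes of Rfc3 and 4930519H02Rik. Both low adult windows lay on 8_random at −0.34 and held probes of Pcp2, a Purkinje cell protein, and TC1532266, 1 of them also of Xab2, a factor of transcription-coupled DNA repair. The low embryo window, on 16_random with ENSMUST00000067950, Zfp295 and XM_619421 at −0.31, was high on the adult array at 0.46. Its middle value there was that of a Zfp295 probe not well above background in either channel.

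Most genes on the contigs had too few probes to check 1 against another: 109 of the 164 names had 1 probe, 55 had at least 2, and 16 had at least 3. Among the 55, all probes lay on the same side of 0 for 24 names on the adult array and for 25 on the embryo array. The median SD between probes of a name was 0.190 and 0.176, and the highest was 0.839 and 0.851. Medians of these 55 names ran from −0.45 to 0.56 in the adult and from −0.51 to 0.59 in the embryo. At or past 0.5 were Zfp295 on the adult array (0.56) and Bicd1 (−0.51) and Tfpt (0.59) on the embryo array. Of the 2 Zfp295 probes, only 1 was well above background in both adult channels. No name passed in the same direction on both.

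Of the names with at least 3 probes, Tfpt stood out on the embryo array. Its probes had 0.60, 0.59 and 0.0026 there, and −0.14, 0.16 and −0.0010 on the adult array. The first of them was the brightest contig probe in the control, with signals of 2808 in embryo offspring and 1000.4 in embryo control. Also on 7_random were 3 probes of Dhx34, an RNA helicase of mRNA surveillance, with 0.36, 0.26 and −0.18 on the embryo array and 0.0093, −0.034 and 0.55 on the adult array. All 3 Tfpt probes and 2 of the 3 Dhx34 probes lay above 0 in the embryo.

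Several genes owed their extreme value to 1 probe. Ptger2, a receptor for prostaglandin E2, held the lowest embryo probe of the contigs, at −1.52, with signals of 79.8 in offspring and 126 in control. Its other probes had 0.090 and −0.25 on the embryo array, and all 3 adult ratios lay between −0.065 and 0.052. AK016503, a transcript with no gene name, had 0.075, −0.073 and 0.93 in the adult and −0.0082, −0.90 and 0.082 in the embryo. The high adult value and the low embryo value came from different probes. Psmc6, an ATPase of the proteasome cap, had 0.11, 0.12 and −0.77 in the adult and −0.0048, 0.18 and −0.16 in the embryo.

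Nalp5 (now Nlrp5, an oocyte protein needed for early embryo cleavage) had −0.60, −0.044 and −0.29 in the adult and 0.030, −0.59 and 0.19 in the embryo. The 3 probes were all below 0 in the adult and mixed in the embryo. Gltscr2 (now Nop53, a ribosome assembly factor) had 0.72, −0.21 and −0.10 on the embryo array and between −0.27 and 0.081 on the adult array. The RIKEN clone 9230106D23Rik (now Ovch2) had −0.66, −0.11 and −0.053 in the adult and −0.020, 0.35 and 0.21 in the embryo. Another clone, 5730420B22Rik (now Txndc16), had −0.25, −0.25 and 0.28 in the adult and −0.12, −0.57 and −0.20 in the embryo, and its medians of −0.25 and −0.20 were both below 0.

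The other names with at least 3 probes had medians between −0.22 and 0.10 in the adult and between −0.23 and 0.20 in the embryo. Adck1, a mitochondrial kinase-like protein, had −0.12 and 0.20, with all 3 probes below 0 in the adult and above 0 in the embryo. Sepw1 (now Selenow, a small selenoprotein) had −0.22 and 0.084, Arhgef18, a guanine nucleotide exchange factor, had −0.22 and −0.10, and Col11a1, a collagen of cartilage, had −0.10 and −0.034. Fbp2, the muscle form of fructose bisphosphatase, had 0.032 and −0.23, and XM_619421 had 0.10 and −0.15. None of these 6 names had a probe past the threshold on either array.

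For 18 names the array also carries probes at a placed position, and for 7 of them at least 2. The median of contig minus placed ratio was 0.104 on the adult array, within a range of −0.70 to 0.81, and 0.018 on the embryo array, within −0.79 to 1.20. Among those with at least 2 placed probes, Zfp295 had the largest adult difference and Pex11c the largest embryo difference. For Zfp295, the 2 contig probes had medians of 0.56 and −0.086, and its placed probes, on chromosome 12, had −0.24 and 0.25. Only 1 of these contig probes was well above background in both adult channels, with an adult ratio of 0.66. Pex11c (now Pex11g, a peroxisome membrane protein) had −0.25 and 0.34 on 8_random, against −0.11 and −0.33 on chromosome 14. Wbscr5 (now Lat2, a membrane adaptor of immune receptors) had −0.0082 and 0.50, against −0.068 and 0.037 on chromosome 1. Txndc10 (now Tmx3, a disulfide isomerase) had 0.19 and 0.016, against −0.27 and −0.037 on chromosome 2. In the assembly table, Zfp295, Pex11c, Wbscr5 and Txndc10 are on the chromosome their contig is named for, not on that of their placed probes. Whether those placed probes measure the same gene was not tested. Cys1, the ciliary protein cystin, had −0.030 and −0.11, against 0.31 and −0.033, and 2010204N08Rik (now Sis, the intestinal enzyme sucrase-isomaltase) had −0.22 and 0.25, against 0.098 and 0.0076. In none of these 6 names did the contig and the placed median both pass the threshold.

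Of 19 gene family lists, 7 had contig probes and 12 had none. The 6 odorant receptor genes, which encode smell receptors of the nasal epithelium, were Olfr474, Olfr476, Olfr477, Olfr478 and Olfr480 on 7_random and Olfr1507 on 14_random. Their adult ratios ran from −0.19 to 0.12 with a median of −0.12, and their embryo ratios from −0.28 to 0.29 with a median of −0.019, so none was past the threshold. Zfp358 had 0.16 and 0.089, the histone gene Hist2h2aa1 (now H2ac18) had 0.29 and −0.21, and the ribosomal protein gene Rps9 had −0.15 and 0.19. The solute carriers Slc16a14 and Slc8a2 gave 3 probes between −0.28 and −0.043 in the adult and between −0.14 and 0.19 in the embryo. Probes named by a clone or transcript identifier held part of the calls. Some of these names match a current gene, such as 2810402K13Rik (now Klhl25). Of 41 probes of RIKEN clones, 2 were lower and 2 higher on each array. Of 48 probes named by a transcript or gene model identifier, none was lower and 6 were higher in the adult, with 3 lower and 2 higher in the embryo. The 235 named probes include these clones and transcripts. Of the 235, 8 were lower and 14 higher in the adult, with 13 lower and 12 higher in the embryo. The 71 probes without any name had 3 lower and 2 higher in the adult, 1 lower and 4 higher in the embryo. Over placed autosomal probes 5.52% were lower and 3.69% higher in the adult, and 5.57% and 4.53% in the embryo.

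The assembly table gives a chromosome for many of these genes. Of the 164 names, 120 were found in the assembly table: 69 as a symbol, 49 as a synonym and 2 by accession. Among 183 matched probes on numbered contigs, 174 are now on the chromosome that the contig was named for and 9 on another autosome, and none are on X or Y. Both matched genes of Un_random now have an autosome, Gm1679 (now Lrcol1) chromosome 5 and Sytl3 chromosome 17. The 174 probes had medians of −0.034 and −0.019, and the 11 probes now on an autosome other than their contig's had −0.030 and −0.040, with none past the threshold on either array. Among these 11 were Rai1 (18_random, now 11), a transcription regulator, with 0.27 and 0.076, and Six6 (17_random, now 12), an eye and pituitary factor, with 0.28 and −0.083.

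Adult ratios spread more widely among dim probes than among bright ones, and the part of dimness in the calls was not tested. The contig probes were about as bright as placed autosomal ones: background-subtracted medians on the adult array were 45.1 in offspring and 61.7 in control, against 42.0 and 56.9, and on the embryo array 204 and 107, against 194 and 106. Well above background in both channels were 295 of 306 on the adult array and all 306 on the embryo array. When contig probes were ranked by control signal and divided into 4 groups of 76 or 77, the SD of adult ratios was 0.400 in the dimmest group and 0.274, 0.236 and 0.208 in the following ones. That dimmest group held 17 of the 27 adult probes past the threshold (22.1% of its 77 probes), and the brightest held 1 (1.32%). Placed autosomal probes in the same signal ranges had 27.9% and 1.04% past the threshold. On the embryo array the SDs were 0.315, 0.344, 0.325 and 0.276. There 5 of 30 probes past the threshold were in the dimmest group (6.49% of its 77 probes). Placed autosomal probes in that signal range had 14.1% past the threshold.

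**Figure D4:**
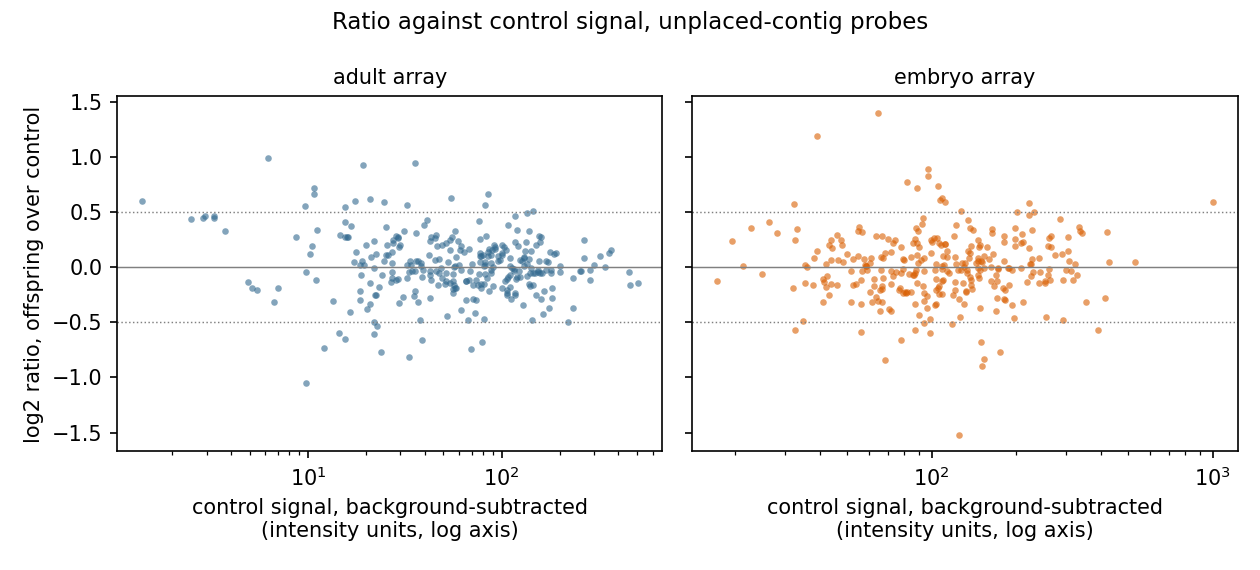
Log2 ratio of offspring over control (y axis) against background-subtracted control signal (x axis, log scale, intensity units) of the contig probes on each array. Dotted lines mark 0.5 in either direction: adult ratios spread from an SD of 0.208 among the 76 brightest probes to 0.400 among the 77 dimmest.

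On the adult array 11 contig probes had a surrogate value that the scanner software sets for a dim channel, with a median ratio of 0.44. Among them was a probe of Zfp295 at 0.46 that was not well above background in either channel. The lowest adult contig probe, on 7_random in D7Ertd458e (now Pvr, the mouse counterpart of the poliovirus receptor), also had a surrogate value. Its ratio was −1.05 with signals of 3.45 in offspring and 9.83 in control, the offspring signal not being well above background. The same probe had 0.45 on the embryo array, and the other probe of D7Ertd458e had 0.14 and −0.12. For the 6 members that were spotted 3 times, the SD between spots ran from 0.154 to 0.474 in the adult and from 0.0135 to 0.126 in the embryo. Over all 308 probes spotted 3 times its median was 0.194 and 0.0651, so 1 adult spot was less precise than 1 embryo spot. The repeated member past the threshold was Crx, a photoreceptor transcription factor, with −0.52 and a spot SD of 0.126 on the embryo array and 0.20 with a spot SD of 0.256 on the adult array.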

How the data were processed

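Genomic DNA of 2 hybridisations was measured on 2-colour Agilent arrays. The deposited scanner files hold intensity values written by Agilent Feature Extraction 9.1.1.1 per the file headers (9.1 per the submitters' processing notes): background-subtracted and detrended signals with surrogates for dim spots and linear dye normalization. The deposited log10 ratio column and the series matrix, which matched it within 0.0005 on 44050 spots (medians −0.0032 and 0), are Cy5 over Cy3. Number of per-sample matrix columns left unused: 0.

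Control spots and outlier-marked spots were left out, log2 ratios of offspring over control (Cy3 over Cy5 adult, Cy5 over Cy3 embryo) were averaged over spots of a probe, and the median of every array was then subtracted, without loess. Both arrays were fitted with limma 3.58.1 (lmFit, eBayes; R 4.3.3) over all probes with Benjamini-Hochberg adjustment at 0.05, tested on simulated data first. Other steps used Python 3.11.15, numpy 2.4.6, pandas 2.3.3, scipy 1.17.1 and matplotlib 3.10.9. The number of arrays limits the precision. Alternatives were normexp (offset 50), the deposited ratio column, loess, other centring, dim probes left out, marked spots kept, thresholds of 0.3 and 0.8, Cy5 over Cy3 on both arrays and an eBayes trend.

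Members, gene lists and windows were chosen with earlier results of these data known. Genes named are those with at least 3 contig probes, those past the threshold on both arrays, up to 6 higher and 6 lower per array with usable signal, up to 6 in opposite directions, up to 6 with at least 2 placed probes, and up to 3 per gene list. Other names were chosen after their values were seen, some list members are given only in counts, and some items are not reported here. Assembly table GRCm38.p6 was used for names and chromosomes.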

Additional observations from a re-analysis of the deposited data

Results flagged for a closer look

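The difference between the arrays was not tested for any of the following names, since each stage has 1 array, and their causes were not tested either. All have 1 contig probe each and were past the threshold in opposite directions. AK054510 had an adult ratio of 0.66 and an embryo ratio of −0.83. D17Ertd663e had 0.63 and −0.57. For 2810402K13Rik the order was reversed, with −0.54 and 0.60. E430019B13Rik had 0.51 and −0.77. An unnamed probe on 5_random, from 20524324 to 20524383, had −0.68 and 0.63. With normexp none of these 5 probes kept its adult call: the adult ratios were 0.30 for AK054510, 0.33 for D17Ertd663e, 0.043 for 2810402K13Rik, 0.18 for E430019B13Rik and −0.41 for the unnamed probe. Their embryo ratios under that setting were −0.70, −0.44, 0.73, −0.67 and 0.77, so D17Ertd663e lost its embryo call too.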

How the results depend on the processing

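No contig probe passed limma's test under any setting run. No paired analysis was possible because each stage has 1 array and the labels give no replicate numbers, and the slide could not be a block for the same reason. With normexp, 2 contig probes were lower (0.654%) and 0 higher on the adult array, 7 lower (2.29%) and 32 of 306 higher on the embryo array, where 7.18% of placed autosomal probes were higher, and 0 lower on both. At a threshold of 0.3 the adult counts were 31 lower and 37 higher, the embryo counts 41 and 42 (placed autosomal probes: 13% and 12.9%, then 14.2% and 12.4%; contig probes: 10.1% and 12.1%, then 13.4% and 13.7%), with 2 lower and 1 higher on both. At 0.8 they were 2 and 3, then 4 and 4 (placed autosomal probes: 1.97% and 0.894%, then 1.16% and 1.94%; contig probes: 0.654% and 0.98%, then 1.31% and 1.31%), with 0 lower on both. With both arrays as Cy5 over Cy3 the adult sign is turned. The 5 contig probes past the threshold in opposite directions (1.63%) then counted as 3 lower and 2 higher on both. The same turn applies to 1.12% of placed autosomal probes. For single genes and contig groups, all 124 values moved by no more than the median SD between repeat spots of a probe (0.194 adult, 0.0651 embryo) with autosomal centring, dim probes left out or marked spots kept, as did 123 with the deposited ratio column, 114 with loess and 53 with normexp. Under normexp 2810402K13Rik turned to 0.043 on the adult array. The causes were not tested. Depth is limited by the 1 array per stage, and on the adult array by dim signal.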
